A study of Caenorhabditis elegans with 15 samples.

Results

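Transcript levels of 7 genes of the touch receptor neuron channel and of the extracellular matrix around it were followed in *Caenorhabditis elegans*. The genes were mec-1, mec-2, mec-4, mec-5, mec-6, mec-9 and mec-10. They were chosen by name, and all 7 were found among the 46926 gene identifiers of the table. The data came from 15 polyA RNA libraries of whole animals at the L4 larval stage, all given the strain name N2. Of these, 6 were wild type (N2) and 3 came from each mutant: e398, labelled mec-8 (e398) KO, u74, labelled u74 KO, and u218, labelled u218 KO. No transgene, treatment or shared allele was given, and the u74 and u218 labels name no gene, although the table as a whole is named for MEC8 mutants.

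The touch receptor neurons sense gentle touch along the body wall through a mechanically gated sodium channel. MEC-4 and MEC-10 are degenerin/ENaC subunits that form its pore. MEC-2 is a stomatin-like protein and MEC-6 a paraoxonase-like membrane protein, and both are needed for channel activity. The secreted proteins MEC-1 and MEC-9 carry EGF-like and Kunitz-type domains, and the collagen MEC-5 is made by the epidermis; these organise the matrix along the neurons. MEC-8 is an RNA-binding splicing regulator, and mec-2 is among its described targets.

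The table holds 1 averaged normalized count per genotype and gene, so wild type and most values of the mutants carry no replicate error and were not tested. Whole reads behind an average could be worked back to single libraries for averages up to 500 in the mutants. Among the members this gave a single solution for mec-4 and mec-6 in all 3 mutants and for mec-9 and mec-10 in u74; mec-10 in u218 had 2 solutions and was left as an average. Which labelled replicate a recovered library is cannot be told; they are numbered here by falling size factor, the number by which the reads of a library were divided. Column totals ran from 63068771 to 126747904 normalized counts.

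Recovered library 3 of u218 stood apart. It differed at least 4-fold from both other u218 libraries for 31.1% of 8063 genes, while library 2 of e398 did so for 14.2% of 9997 genes and the other libraries for 0.558% to 5.22%. The wild-type average mixes 3 libraries of small size factor (0.471 to 0.531) with 3 of large size factor (1.59 to 1.82). The e398 libraries lay between 0.476 and 0.685, those of u74 between 1.46 and 1.95, and those of u218 between 0.831 and 1.99. This gap between e398 and the other mutants goes with every difference between them below, and its part in those differences was not tested. The mix of size factors in wild type likewise goes with every ratio to N2, and its part there was not tested.

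The gene mec-8 itself averaged 1956 normalized counts in N2, 1069.7 in e398, 2239 in u74 and 3620 in u218, so its transcript was present in all groups labelled KO. The labels do not say what kind of lesion each group carries, so this level does not check them.

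The pore subunit genes come first. The gene mec-4 (WBGene00003168; chromosome X, 16803321 to 16807115, minus strand, WBcel235) had a wild-type average of 278 normalized counts. Its single e398 libraries held 416, 455 and 526 normalized counts. Those of u74 held 123, 104.2 and 95.3, and those of u218 held 275, 307 and 421. Every e398 library lay above the wild-type average and every u74 library below it, while the u218 libraries lay on both sides of it. The share of all genes with libraries so placed was not counted. The e398 mean was 466 ± 55.5, the u74 mean 108 ± 14.2 and the u218 mean 334 ± 77.2 (SD, n = 3 each).

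Between mutants, mec-4 fell in u74 relative to e398, with a log2 ratio of -2.10 (SE 0.26; adjusted p = 0.00084) by limma on log2(normalized count + 1) with Benjamini-Hochberg adjustment over 7644 genes. It was 1.61 higher in u218 than in u74 (SE 0.26; limma adjusted p = 0.00785 over 7091 genes), and no library of u74 overlapped the other mutants. In these fits 35.3% of genes were called lower in u74 than in e398, and 12.1% higher in u218 than in u74. The share of all genes whose libraries did not overlap was not counted. The difference between u218 and e398, -0.49 on the log2 scale with a 95% interval from -1.08 to 0.09, did not pass (limma adjusted p = 0.143); the groups overlapped there. Without u218 library 3 it was -0.67 (limma adjusted p = 0.0526), and the difference between u218 and u74 was 1.43 (limma adjusted p = 0.000415).

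The gene mec-10 (WBGene00003174; chromosome X, 8465760 to 8470314, minus strand, WBcel235) encodes the partner subunit and had the lowest ratio of all members in u74. It averaged 1311 normalized counts in N2, 1870.0 in e398 and 435 in u218. The u74 libraries held 204, 183 and 134, with a mean of 174 ± 36.2 (SD, n = 3). All 3 were between 10.2% and 15.6% of the wild-type average. Its averages stood to that of N2 at log2 ratios of 0.51 (e398), -2.91 (u74) and -1.59 (u218). The ratio in u74 was 7.51-fold, and 9.23% of the genes considered there had a lower one.

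**Figure D1:**
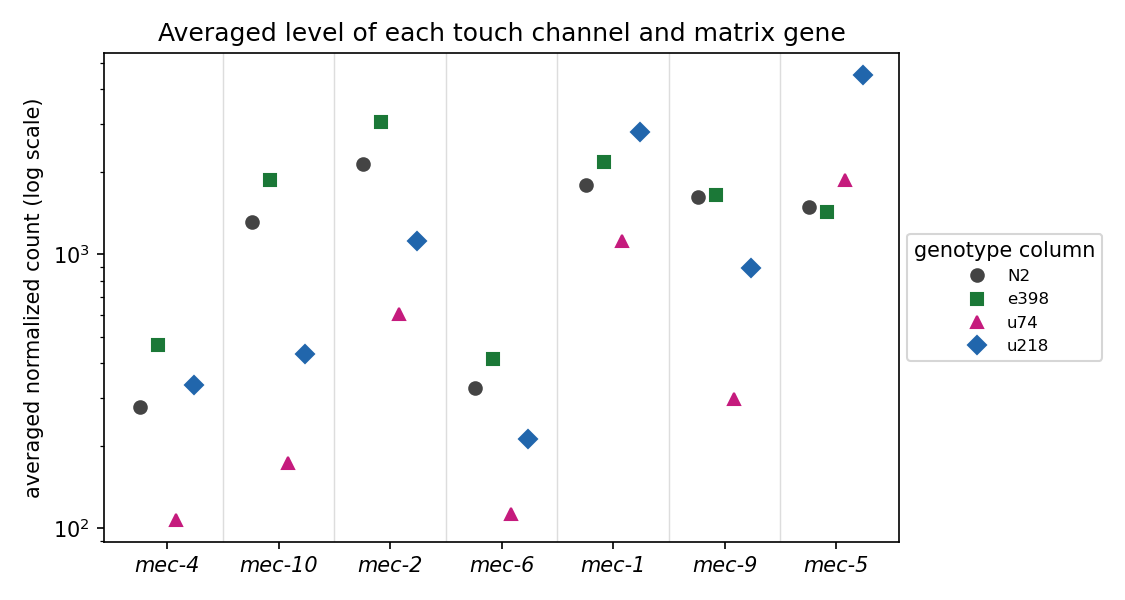
Averaged normalized count (log scale) of each of the 7 genes in the 4 genotype columns, 1 point per column with no replicate error. The u74 point is the lowest of the 4 for every gene but mec-5, whose u218 point (4508) is the highest value plotted.

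The accessory subunit gene mec-2 (WBGene00003166; chromosome X, 5567754 to 5590830, plus strand, WBcel235) had an average of 2136 normalized counts in N2 and 3036 in e398, against 606 (u74) and 1123 (u218). As log2 ratios to N2 these were 0.51, -1.82 and -0.93. The annotation lists 17 transcripts for mec-2, and the deposited values are sums per gene, so splice forms were not separated. In u74 it was 5.01-fold lower than in e398.

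The gene mec-6 (WBGene00003170; chromosome I, 6724867 to 6728330, plus strand, WBcel235) averaged 325 in N2. Its e398 libraries held 332, 467 and 448 normalized counts. The u74 libraries held 114, 126 and 99.5, and the u218 libraries 243, 228 and 167. The 3 mutants did not overlap, with means of 415 ± 73.2, 113 ± 13.5 and 213 ± 40.0 (SD, n = 3 each). How many of all genes also showed no overlap was not counted. All libraries of u74 and u218 lay below the wild-type average and all of e398 above it. The share of all genes so placed was not counted either. In u218 library 3 mec-6 was the lowest of its group, whereas mec-4 was the highest of its group there.

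By limma, mec-6 fell in u74 relative to e398, with a log2 ratio of -1.86 (SE 0.28; adjusted p = 0.00149). It also fell in u218 relative to e398, with a ratio of -0.96 (SE 0.29; limma adjusted p = 0.0307), where 31.2% of 7639 genes were called lower, and was 0.89 higher in u218 than in u74 (SE 0.27; limma adjusted p = 0.0483). Leaving out single libraries ended the call against e398 in 4 of 6 cases: u218 library 1 or 2 (adjusted p = 0.0701 and 0.081) and e398 library 2 or 3 (0.0659 and 0.0963). It ended the call against u74 in 5 of 6 cases: u218 library 1 or 2 (adjusted p = 0.181 and 0.175) and u74 library 1, 2 or 3 (0.112, 0.107 and 0.131). Without u218 library 3 the differences were -0.80 against e398 (limma adjusted p = 0.0461) and 1.06 against u74 (limma adjusted p = 0.00213). Of the exonic bases of mec-6, 35 overlap the abundant lipid-binding protein gene lbp-6 on the other strand. The gene lbp-6 averaged 12036 in N2, 2775 in e398, 13681 in u74 and 28939 in u218. Other members with such exonic overlaps with a protein-coding gene are mec-1 with ptr-15, mec-4 with aak-2 and mec-9 with egl-47. In the order N2, e398, u74 and u218, ptr-15 averaged 3569, 4131, 378 and 1994. The averages of aak-2 were 3826, 3507, 3667 and 5545, and those of egl-47 were 118.9, 135, 69.2 and 127. The part of reads from these overlaps in the member values was not tested.

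**Figure D2:**
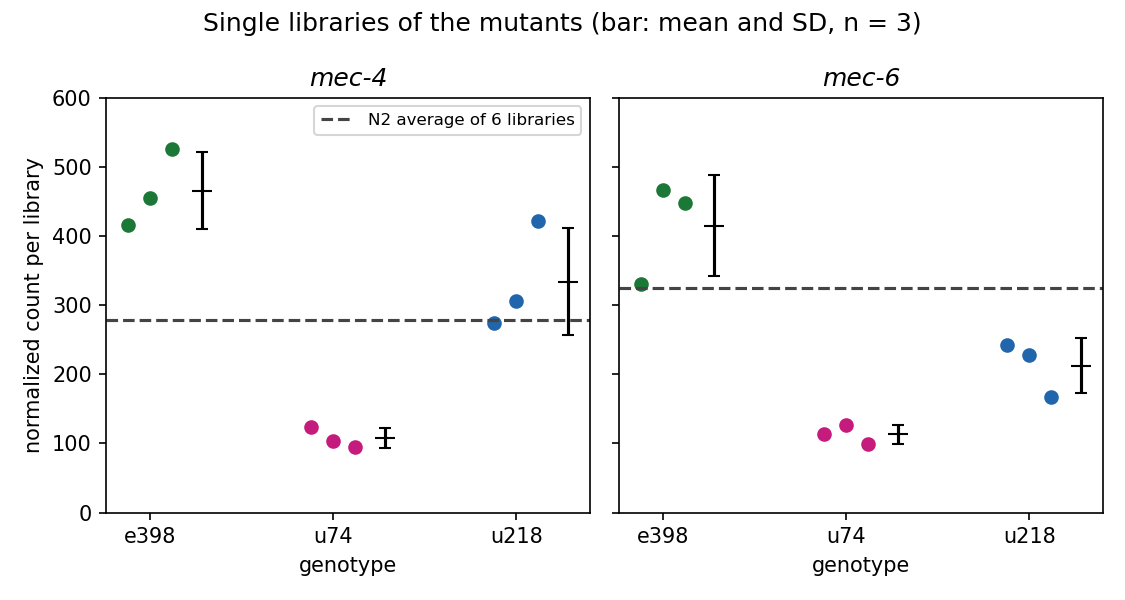
Normalized counts of mec-4 and mec-6 in each recovered mutant library (points), with the mean and SD of 3 libraries beside them (bars) and the wild-type average of 6 libraries (dashed line). The u74 libraries lie between 95.3 and 126 for both genes, below every library of e398 and u218.

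Of the matrix genes, mec-9 was far below wild type in u74, mec-1 differed less, and mec-5 was higher in u218. The gene mec-9 (WBGene00003173; chromosome V, 9907615 to 9915121, minus strand, WBcel235) averaged 1617 in N2, 1642 in e398 and 891 in u218. Its u74 libraries held 299, 336 and 255 normalized counts, between 15.8% and 20.8% of the wild-type average, with a mean of 297 ± 40.5 (SD, n = 3). The log2 ratios to N2 were 0.02 (e398), -2.44 (u74) and -0.86 (u218); the e398 ratio of mec-9 was -0.04 with TMM factors.

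The gene mec-1 (WBGene00003165; chromosome V, 6956537 to 6966425, plus strand, WBcel235) averaged 1798 in N2 and 2175 in e398, against 1116 (u74) and 2799 (u218). The log2 ratios of mec-1 to N2, 0.27, -0.69 and 0.64, stayed short of 2-fold. Between the mutants mec-1 was 2.51-fold higher in u218 than in u74.

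The collagen gene mec-5 (WBGene00003169; chromosome X, 15944009 to 15948952, plus strand, WBcel235) averaged 1492 in N2, 1432 in e398, 1874 in u74 and 4508 in u218. It was the single member with a higher average in u74 than in N2, at a log2 ratio of 0.33. In u218 the log2 ratio was 1.59, a 3.02-fold difference, and 2.82% of the genes considered in that comparison had a higher ratio. This u218 average could not be split into libraries, so the part of library 3, which stood apart, is not known. The epidermis is its known source. In u218, 3 of 8 epidermis markers were 2-fold or more higher and 3 lower. Of all genes considered in that comparison, 10.4% were higher and 35.8% lower. The 8 markers had a summed level of 333505 normalized counts in N2, 306890.2 in e398, 91798.5 in u74 and 197674 in u218. Among them, the cuticle collagen genes dpy-7 and rol-6 averaged 4904 and 14415 in N2 and 19986 and 58163 in u218, while the 3 most abundant markers, col-10, wrt-2 and col-12, had log2 ratios of -1.35, -2.44 and -1.34; dpy-7 and rol-6 were chosen after their values were seen. None of these markers was at 0, and their part in the mec-5 value was not tested.

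Counted together, the 7 genes differed most from wild type in u74. There 5 of 7 (mec-2, mec-4, mec-6, mec-9 and mec-10) were at least 2-fold lower and 0 higher, and the median log2 ratio was -1.51; of 17004 genes with an average of at least 20 in either column, 29.0% were lower, 6.47% were higher and the median was -0.07. In e398, 0 of 7 reached 2-fold either way (median 0.35), where 19.9% of 17398 genes were lower and 11.4% higher. In u218, mec-10 was lower and mec-5 higher (median -0.61), 2 of 7 where 35.8% of 17087 genes were lower and 10.4% higher, so the count is not above that of all genes. These 3 comparisons share the N2 column. Because whole animals were sampled, fewer cells of a type and less RNA per cell cannot be told apart.

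**Figure D3:**
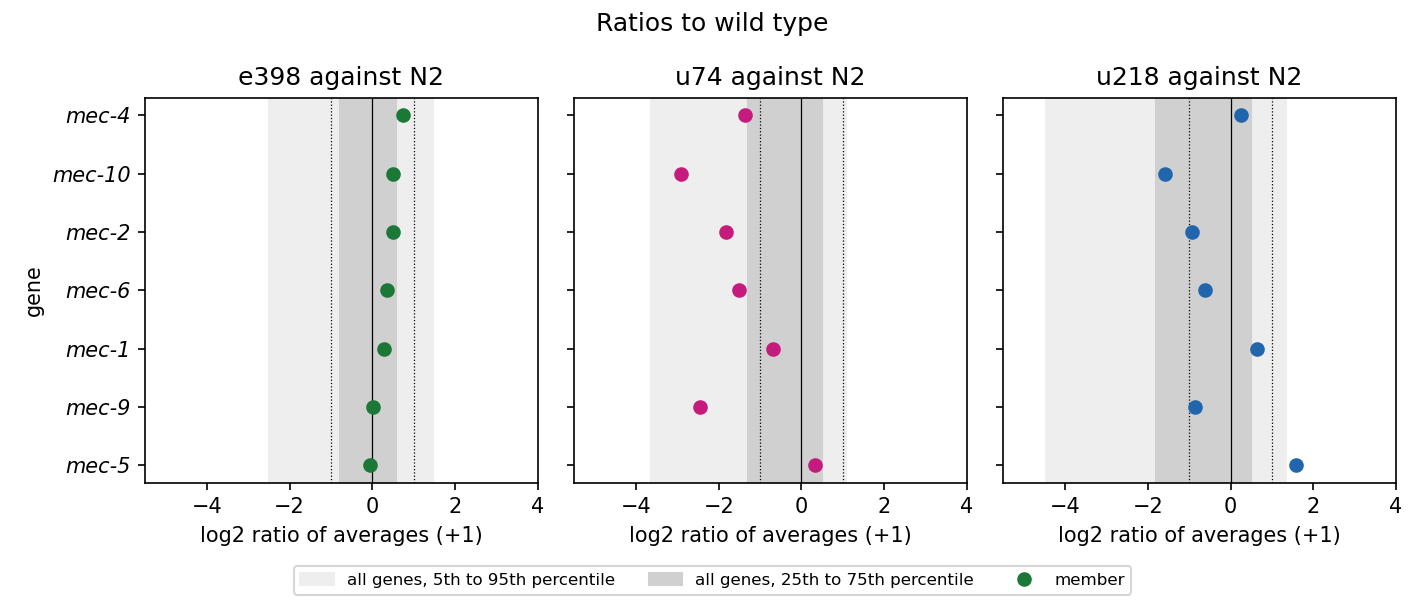
Log2 ratio of averages (each + 1) of the 7 genes in e398, u74 and u218 against N2 (points), over the ranges of all genes considered (light band, 5th to 95th percentile; dark band, 25th to 75th); dotted lines mark 2-fold. In u74 the points of mec-10 (-2.91) and mec-9 (-2.44) lie lowest, and in u218 that of mec-5 (1.59) lies beyond the light band.

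Between mutants, u74 against e398 gave the same 5 genes at least 2-fold lower and 0 higher (median -2.10), where 37.2% of 17376 genes were lower and 27.8% higher. In u218 against e398, mec-2 and mec-10 were lower and mec-5 higher (median -0.88), where 40.7% of 17255 genes were lower and 26.9% higher. In u218 against u74, 5 of 7 were higher (mec-1, mec-4, mec-5, mec-9 and mec-10) and 0 lower, with a median log2 ratio of 1.32. The other two, mec-2 and mec-6, stood at 0.89 and 0.90 and at 1.02 and 1.03 with TMM factors. Of 16279 genes 18.7% were higher and 20.6% lower in that comparison.

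Levels per kilobase of exon allowed the genes to be ordered within a column, which no scaling of columns can alter. In N2 mec-5 led with 1323 normalized counts per kb, followed by mec-10 (525.5), mec-9 (525.4), mec-2 (371), mec-1 (272), mec-6 (209) and mec-4 (117). The order was the same in e398. In u74 mec-1 was second (169), and mec-10 (69.6) was sixth, beside mec-6 (72.9). Single u74 libraries of these neighbours overlapped, from 53.6 to 81.9 per kb for mec-10 and from 64.04 to 81.4 for mec-6. In u218 mec-4 and mec-6 were last, at 140 and 137 per kb. Their libraries overlapped as well, from 115.5 to 177 and from 108 to 156. Per kb, mec-6 stood at 1.36, 1.14 and 0.61 times mec-4 in u218 libraries 1, 2 and 3. Only library 3, which stood apart, thus had mec-4 above mec-6. Lengths are those of all annotated exons of a gene joined, so a gene read mainly as short forms is understated.

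The ratio between transcripts of the pore subunit genes differed between columns. It is a ratio over whole animals, so it does not give the make-up of the channel in touch neurons. Per kb, mec-10 stood at 4.50 times mec-4 in N2, 3.83 times in e398, 1.54 times in u74 and 1.24 times in u218. Single u74 libraries gave ratios of 1.58, 1.68 and 1.34. Among the matrix genes, mec-9 was 1.93 times mec-1 in N2, 1.62 times in e398, 0.57 times in u74 and 0.68 times in u218. The ratio of mec-5 to mec-1 was 4.86 in N2, 3.85 in e398, 9.82 in u74 and 9.43 in u218. For these 3 ratios u74 and u218 lay on the same side of wild type. The u218 ratios could not be split into libraries, so the part of library 3, which stood apart, is not known. The ratios of wild-type averages have no replicate error, and the differences were not tested.

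As a share of the summed level per kb of the 7 genes, mec-5 made up 39.6% in N2, 32.8% in e398, 74.8% in u74 and 74.6% in u218. Together, the 4 channel and accessory genes made up 36.6%, 44.9%, 13.2% and 12.1% in the same order.

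**Figure D4:**
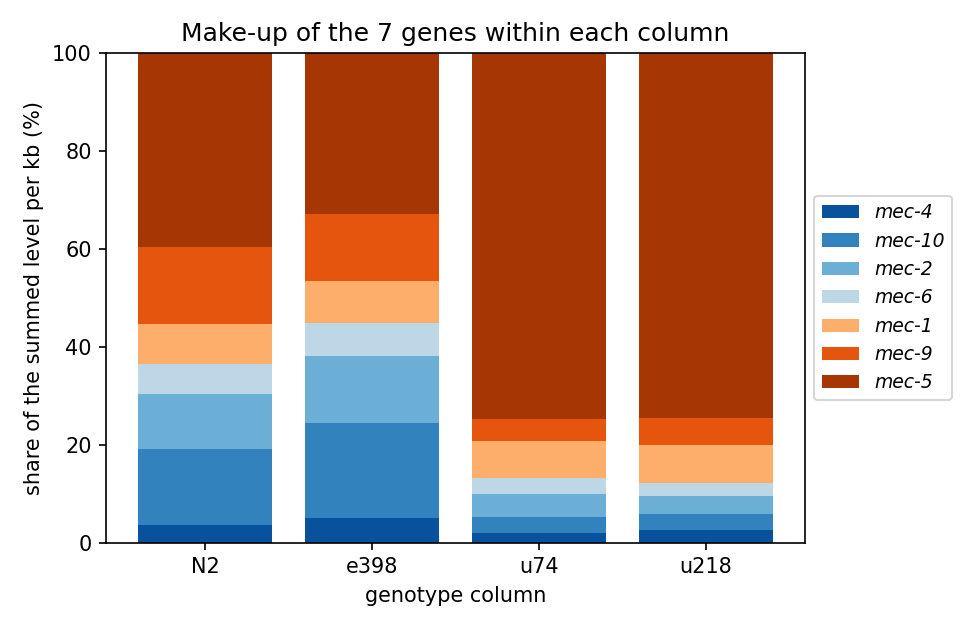
Share (%) of each gene in the summed normalized counts per kb of the 7 genes, within each genotype column; blue shades are channel and accessory genes, orange and brown shades matrix genes. The mec-5 segment takes 39.6% in N2 and 74.8% and 74.6% in u74 and u218.

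A list of other touch receptor neuron genes was read beside the members. In u74, 7 of 11 such genes stood 2-fold or more lower and 0 higher (median log2 ratio -2.82); the counts were 6 lower and 1 higher in u218 (-1.39), and 0 lower and 1 higher in e398 (-0.06). Among all genes considered, 29.0% were lower and 6.47% higher in u74, 35.8% and 10.4% in u218, and 19.9% and 11.4% in e398. The counts of this and the following lists are read against these shares, and no list was tested against other genes. The most abundant of the list were mec-7 and mec-12, for the tubulins of the large touch neuron microtubules, and mec-17, for an enzyme that acetylates tubulin; in u218 their ratios were -1.71, -2.14 and -2.17. The gene mec-3 encodes a LIM homeodomain factor and unc-86 a POU homeodomain factor; together they activate touch neuron genes. They are named outside the rule for named genes. mec-3 averaged 438 in N2, 496 in e398, 61.3 in u74 and 167 in u218, and unc-86 averaged 1249.9, 2141, 160 and 429. The list genes not lower by 2-fold in u74 were alr-1, mec-14, mec-15 and ptl-1, also named outside that rule. Their log2 ratios to N2 were -0.31, -0.34, 0.73 and 0.27 in u74, and 0.90, 0.81, -0.37 and 1.37 in u218. The 5 touch neuron markers are all in the list of 11 as well, so they add no separate genes. They summed to 66675 normalized counts in N2, 80858.6 in e398, 6494 in u74 and 17098 in u218, and none was at 0. Of these markers 5 were 2-fold or more lower in u74, 4 in u218 and 0 in e398, and 0 were higher. Their part in the member values was not tested.

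Of 15 general neuron markers, 2 were lower and 0 higher in u74 (median -0.08, and 0.11 with TMM factors), 1 was lower and 4 were higher in u218 (median 0.68), and 2 were lower and 0 higher in e398 (median -0.50). Their summed level was 44999 in N2, 43682 in e398, 38650 in u74 and 62483 in u218. Values follow for the 3 markers with the highest averages. In the order e398, u74 and u218, the log2 ratios to N2 were 0.08, -0.08 and 0.79 for egl-3, which encodes a proprotein convertase that processes neuropeptides. They were -1.35, 0.71 and 1.03 for the synaptobrevin gene snb-1, and 0.45, -1.34 and -0.50 for the kinesin gene unc-104.

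Relatives of the channel subunits that are not members were followed as well, wherever they are expressed. Of 26 other degenerin/ENaC genes considered in u74, 17 reached 2-fold lower and 0 higher (median -1.33); 10 of 27 were lower and 3 higher in u218 (-0.70), and 1 of 24 was lower and 4 higher in e398 (0.47). The u218 counts lay near the shares of all genes, 35.8% lower and 10.4% higher. The muscle degenerin gene unc-105 averaged 4276 in N2, 7752 in e398, 1025 in u74 and 1925 in u218, and del-10 had log2 ratios of 0.62, -2.55 and -1.84. The most abundant member, del-6, stayed within 2-fold (-0.49, -0.52 and -0.10).

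Of 8 other stomatin genes considered in u74, 3 were lower and 0 higher (median -0.23). In u218 it was 2 lower and 2 higher (-0.21, and 0.10 with TMM factors). Of 9 considered in e398, 1 was lower and 0 higher (0.33). The gene unc-1, which encodes a stomatin acting at neuronal gap junctions, had a log2 ratio of 1.19 in u218. The other most abundant stomatin genes, stl-1 and sto-5, stood at 0.12 and -0.54 there. Of the 4 other paraoxonase-like genes, 3 were lower in u74 and 2 in u218. poml-3 averaged 27988 in N2, 25912 in e398, 934 in u74 and 1003 in u218, with ratios of -4.90 and -4.80, and poml-4 had -5.25 and -4.86. The third most abundant, poml-2, stood at 0.27 and 0.04.

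Among 15 other matrix and attachment genes, 6 were lower and 0 higher in u74 (median -0.66), 4 lower and 0 higher in u218 (-0.57), and 2 lower and 0 higher in e398 (0.08). In u218 and e398 these counts were below the shares of all genes that were lower, 35.8% and 19.9%. The collagen IV chain gene emb-9 stayed near wild type in all mutants (0.08, -0.33 and -0.26), whereas let-2, encoding the other chain, had ratios of 0.78, -1.59 and -1.71. The perlecan gene unc-52 had ratios of 0.40, -0.92 and -0.81.

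The columns also differed in reproductive and adult transcripts. All 7 oocyte markers reached 2-fold, higher in u74 and lower in u218, with 6 of 7 lower in e398; they summed to 89400.3 normalized counts in N2, 29155 in e398, 256451 in u74 and 11427 in u218. Adult markers, 7 in all, summed to 482258, 284816, 1223577 and 4699 in the same order. Of these, 2 were higher and 2 lower in e398, 6 higher and 0 lower in u74, and 0 higher and 7 lower in u218. No marker was at 0, and the part of these differences in the member values was not tested. Body wall muscle, which also expresses mec-6, had a summed level over 7 markers of 1723975 in N2, 2423958 in e398, 866476 in u74 and 956679.7 in u218. Of these markers 1 of 7 was at least 2-fold lower in each mutant and 0 higher, but it was not the same gene throughout. In the order e398, u74 and u218, the log2 ratios to N2 were -1.76, 0.48 and 0.53 for unc-22. They were 0.74, -2.06 and -1.95 for unc-15.

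Finally, the genes whose 3 ratios to N2 were most like those of each member were listed by Euclidean distance over 12070 protein-coding genes with an average of at least 50 in every column. For mec-4 these were fbxa-4 (0.11), twk-11 (0.16) and ver-4 (0.17), and for mec-10 mab-20 (0.11), F21D9.4 (0.15) and F34D10.3 (0.16). For mec-2 they were H10D18.5 (0.04), unc-49 (0.09) and egl-13 (0.10), and for mec-6 stg-2 (0.04), cyp-33C9 (0.06) and Y54F10BM.13 (0.07). For mec-9 they were C26B9.7 (0.12), M05D6.9 (0.14) and C01F1.5 (0.24), for mec-1 acr-24 (0.13), cal-3 (0.14) and lin-17 (0.15), and for mec-5 Y39G8B.2 (0.09), fkb-8 (0.13) and F22F1.3 (0.14). None of these genes was a member. The nearest pair of members, mec-2 and mec-6, lay 0.47 apart, and 214 genes lay nearer to mec-2 than mec-6 did.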

How the data were processed

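PolyA RNA of whole L4 animals was sequenced, per the labels. The deposited table holds signal values, 1 averaged normalized count per gene and genotype; the averaging and normalization are per the name of the table, and division by library size factors was read from repeated steps of the low values. Named in the submitters' processing notes, with no version, are DESeq2, DESeq, HTSeq and bedtools. The sources used here give no aligner, genome build, annotation or strand setting. Without strand, reads in the exonic overlaps of mec-1 with ptr-15 (30 bases), mec-4 with aak-2 (78), mec-6 with lbp-6 (35) and mec-9 with egl-47 (33) cannot be assigned.

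All 46926 identifiers matched the WBcel235 annotation, Ensembl release 115, which gave symbols, positions and exon lengths. Ratios are log2((average + 1)/(average + 1)) where either column averaged at least 20, called at 2-fold, without a test.

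Reads per library were recovered for mutant averages up to 500 as the single set of 3 whole numbers that, multiplied by the 3 steps of the column, gave the printed average within 0.75 units of its last digit. Of nonzero values searched, 99.97% (e398), 97.7% (u74) and 98.1% (u218) had 1 solution and 0% none. Moved values up to 100 had none. Between 100 and 200, where mec-4, mec-6 and mec-10 in u74 lie, 7.33% (u74) and 9% (u218) had one. Between 200 and 300 75.0% (u74) and 50.7% (u218) had one, and between 300 and 400 98.7% and 79.3% did. Above 200 in u74 and u218 the recovery therefore rests on the steps seen at low values and on there being 1 solution. Between 300 and 400, where mec-4 in u218 lies, 2.16% (u74) and 6.89% (u218) of values had several solutions. Genes so resolved in both mutants, with a mean of at least 5, were tested with limma 3.58.1 (trend) in R 4.3.3 at adjusted p under 0.05; genes with a high average in either mutant are outside this test. Nothing in the labels says that replicates came from separate cultures, so p-values measure the spread between these libraries, which may be technical.

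The text names all members, genes among the 3 most abundant of a list, and the 3 genes most like each member. Named outside this rule were dpy-7, rol-6, mec-3, unc-86, alr-1, mec-14, mec-15, ptl-1 and unc-22. Members and lists were chosen with earlier results of these data known.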

Additional observations from a re-analysis of the deposited data

How the results depend on the processing

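Of 168 member ratios under pseudocounts of 0.5 and 10, recentring and TMM factors, 166 kept their side of 2-fold; mec-2 and mec-6 in u218 against u74 passed it with TMM factors (1.02 and 1.03). TMM factors shifted log2 ratios to N2 by -0.06 in e398, 0.18 in u74 and 0.31 in u218. They raised the share of all genes higher from 6.47% to 11.7% in u74 and from 10.4% to 18.8% in u218, where recentring gave 17.3%. At 1.5-fold, 1 member was higher in e398, 2 were higher and 4 lower in u218 against N2, and 4 were lower in u218 against e398. The same cutoff gave 6 lower in u74 against N2, 6 lower in u74 against e398 and 7 higher in u218 against u74. At 3-fold, 3 were lower in u74 against N2 and 5 in u74 against e398. That cutoff left 1 lower in u218 against e398 and 1 higher in u218 against u74. Shares of all genes at 1.5-fold and 3-fold were not counted, so these member counts have no background. Limma voom left all 6 tests of mec-4 and mec-6 on the same side of the threshold. With each library left out in turn, mec-4 ran from -2.21 to -2.01 in u74 against e398, from -0.67 to -0.37 in u218 against e398 and from 1.43 to 1.74 in u218 against u74. For mec-6 these were -2.01 to -1.76, -1.12 to -0.80 (4 of 6 no longer past the threshold) and 0.79 to 1.06 (5 of 6). No paired analysis was possible because neither the averages nor the recovered libraries carry replicate numbers. Members above an average of 500 in a mutant, and all members in wild type, have no library values.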
